A study of Mus musculus with 10 samples.

Results

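Mucins are large glycoproteins whose serine- and threonine-rich stretches carry dense O-linked sugars. Gel-forming mucins are secreted and assemble into the mucus that covers ducts, airways and gut, while transmembrane mucins stay on the apical cell surface, where they form part of the glycocalyx and can signal through their cytoplasmic tails. Trefoil factors are small secreted peptides that are released together with mucins and take part in the repair of mucosal surfaces. Several of both families are made by pancreatic ductal tumors, and MUC1, MUC5AC and MUC16 (the CA125 antigen) are well-known markers in that disease.

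The transcripts of 10 genes of these families, Muc1, Muc3, Muc4, Muc5ac, Muc5b, Muc13, Muc16, Muc20, Tff1 and Tff2, were examined in 10 orthotopic tumors. The tumors grew from KPC K8484 cells, which stem from a pancreatic tumor of a genetically engineered mouse. The genes were selected on the values of these same tumors, namely the differences between the 2 groups and the wide spread of Muc3 within one of them, so that the differences below are descriptions without a test of their own. Of the 10 genes, 9 were found among the 55359 genes of the table, and Muc4 was not analysed here. All 9 passed the filter on low values (mean normalized count over the tumors of 1 or more), as did 24560 genes in all.

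Luciferase-expressing KPC K8484 cells had been placed into the pancreas of C57BL/6 mice (C57BL/6 J in the methods of the study) that were 10 weeks old. The sample titles call the tumors PDX, while their source label names KPC K8484 cells. CTRL tumors (n = 5) came from normoglycemic mice on regular water, and D30 tumors (n = 5) came from mice made hyperglycemic with 30% dextrose in their drinking water for 14 days. Each tumor was 1 library, all tumors derive from a single cell line, and host cells were sequenced along with tumor cells, so that fewer cells of a type and less RNA per cell cannot be told apart. Tumors are named by their table columns, N1, N2, N4, N5 and N6 for CTRL and T1, T2, T4, T5 and T7 for D30. The N columns were assigned by their letter and the T columns as the remaining group, and no column could be tied to a single animal.

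Between 29192261 and 42122304 reads stood behind each tumor, and between 20482 (T5) and 25912 (N2) genes had at least 1 read. Keratins of ductal epithelium were abundant in every tumor, with at least 44920 normalized counts of Krt18 and 45447 of Krt19, whereas Epcam, another epithelial marker, stood at 15.9 to 191 in CTRL and 0 to 62.5 in D30 tumors. Summed markers of acinar cells, which belong to the surrounding pancreas, were at 365 to 67768 normalized counts across CTRL and 209 to 6794 across D30 tumors, with the highest sums in N6 and N2. None of the 13 acinar markers tested passed the limma threshold, 3 had an unadjusted p under 0.05, and the one with the lowest p was the carboxypeptidase gene Cpa1, at a log2 difference of -4.88 (limma adjusted p = 0.220). Over all genes, 4258 of 24560 tested had an unadjusted p under 0.05. Of the same genes, 11126 had a higher and 13434 a lower log2 mean in D30 tumors. Such counts below are to be read beside these. The D30 tumor T4 stood apart from the other 9 tumors by 841 reads of Y-linked genes, where the others had 0. The methods of the study state that males and females were used equally in orthotopic experiments. Sex was not a term of the fit, and the source of the Y-linked reads was not tested.

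Among the transmembrane mucins, Muc3, Muc13 and Muc20 stood higher in all D30 tumors and Muc16 stood lower. The gel-forming mucins Muc5ac and Muc5b had lower means in D30 tumors, and the trefoil factors Tff1 and Tff2 had higher means. In the fit over all genes (limma on log2(normalized count + 1), Benjamini-Hochberg adjusted p under 0.05), 5 of the 9 genes passed, where 2.76% of all tested genes did. Muc3, Muc13 and Muc20 rose (3 genes, where 1.40% of all tested genes rose), and Muc5b and Muc16 fell (2 genes, where 1.36% fell). In the same 5 genes the CTRL and D30 values did not overlap, which held for 6.19% of all tested genes. Since the genes were selected on this contrast, nothing is read from these shares. The median log2 difference of the 9 genes was 1.01, and that of all tested genes was -0.065.

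**Figure D1:**
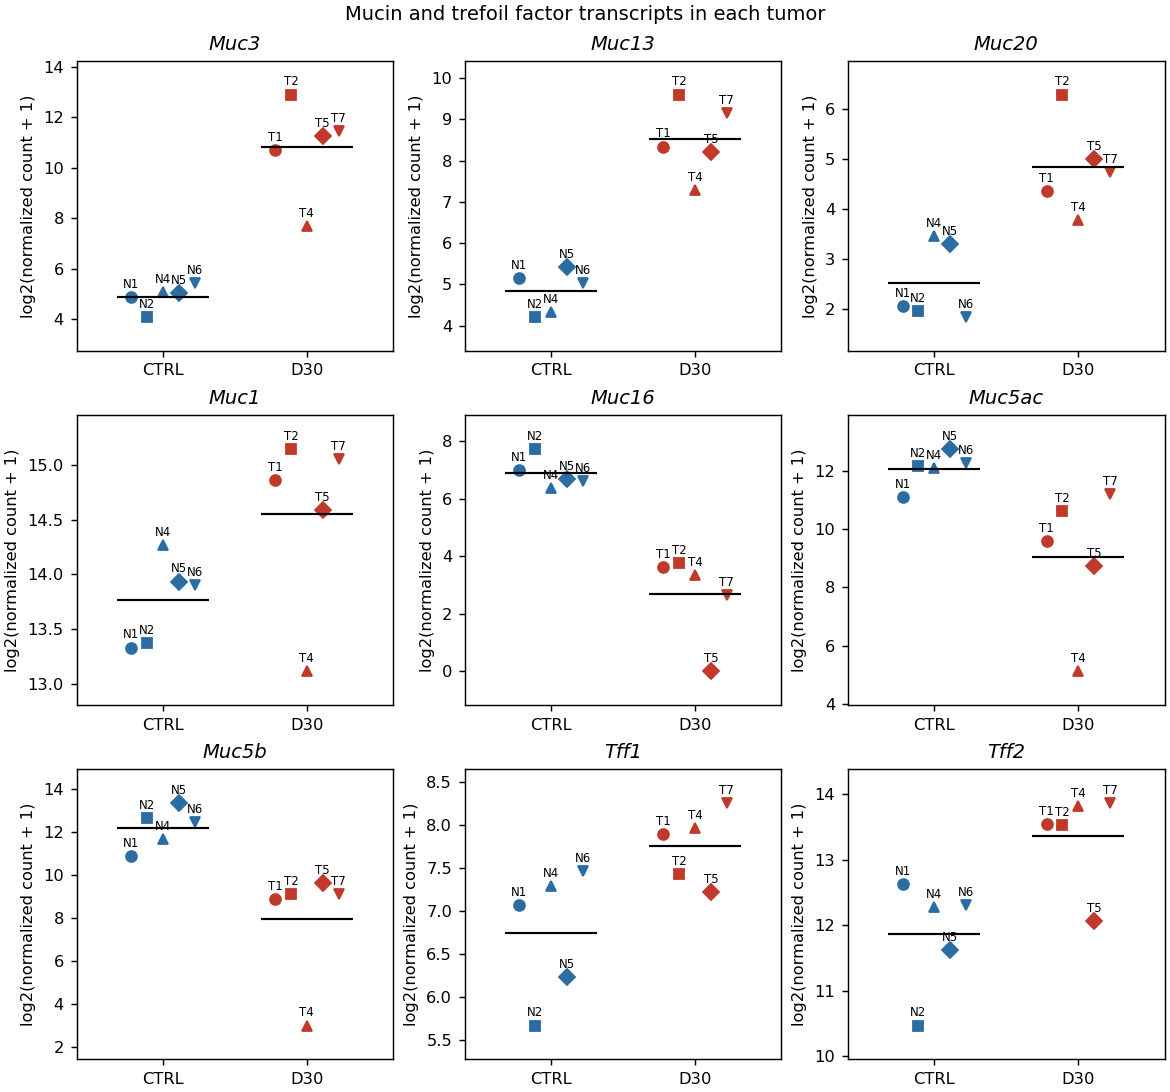
Each panel plots 1 gene on the log2(normalized count + 1) scale, with CTRL tumors in blue on the left, D30 tumors in red on the right, 1 labelled point per tumor and a line at the mean of each group of 5. The groups are apart for Muc3, Muc13, Muc20, Muc16 and Muc5b, and T4 is the lowest D30 tumor in 6 of the 7 mucin panels.

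Muc3 (ENSMUSG00000037390, chromosome 5, 137134922 to 137149322 on GRCm38, minus strand), a transmembrane mucin of the intestinal brush border, had the highest log2 difference of all 24560 genes tested. In CTRL tumors it stood at 28.4 normalized counts in N1, 15.9 in N2, 32.9 in N4, 31.9 in N5 and 41.9 in N6. In D30 tumors it stood at 1662 in T1, 7685 in T2, 208 in T4, 2486 in T5 and 2857 in T7. T2 was the highest and T4 by far the lowest D30 tumor, and yet T4 lay 4.97-fold above the highest CTRL tumor. The means were 30.2 ± 9.42 in CTRL and 2980 ± 2820 in D30 (SD, n = 5 each), a log2 difference of 5.91 (SE 0.719).

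The spread of Muc3 among D30 tumors was wide compared with its own spread in CTRL. The highest and the lowest tumor of a group differed 36.9-fold in D30 and 2.64-fold in CTRL. Without T4 the remaining 4 D30 tumors still ranged over 4.63-fold, and their mean was 3672 ± 2721. On the log2 scale the SD was 1.92 in D30 and 0.50 in CTRL. The lowest D30 value rested on 180 reads and the CTRL values on 22 to 49 reads.

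Muc13 (ENSMUSG00000022824, chromosome 16, 33794037 to 33819934, plus strand), another transmembrane mucin of the intestinal surface, was higher in every D30 tumor as well. Its CTRL values were 34.7 normalized counts in N1, 17.3 in N2, 19.2 in N4, 41.6 in N5 and 31.7 in N6. Its D30 values were 324 in T1, 778 in T2, 156 in T4, 295 in T5 and 574 in T7. As for Muc3, T2 was highest and T4 lowest, and the lowest D30 tumor was 3.75-fold above the highest CTRL tumor. The mean went from 28.9 ± 10.4 to 425 ± 248, a log2 difference of 3.70 (SE 0.432), and the highest D30 tumor was 4.98-fold above the lowest.

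Muc20 (chromosome 16, 32777419 to 32797435, minus strand), a small transmembrane mucin known to associate with the MET receptor, was the least abundant of the mucins that rose. CTRL tumors held 3.16 normalized counts in N1, 2.89 in N2, 10.1 in N4, 8.85 in N5 and 2.57 in N6, which are 3 to 11 reads. D30 tumors held 19.5 in T1, 76.7 in T2, 12.7 in T4, 30.9 in T5 and 25.6 in T7. The groups were separate by a narrow margin, with the lowest D30 tumor (T4) 1.27-fold above the highest CTRL tumor (N4). The log2 difference was 2.31 (SE 0.558). Its call was lost in 9 of the 10 fits that left out 1 tumor and held only without T4, whereas the calls of Muc3 and Muc13 held in all 10. The Muc20 model overlaps that of Muc4 on the opposite strand, and the counting setting for strand is not given in the sources used here.

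Promoter sequences of the 3 mucins that rose are shown because these genes moved together. They are RefSeq reference sequence on GRCm38.p6, from 250 bases before to 50 after the annotated start, written 5′ to 3′ on the strand of the gene.
Muc3, chr5:137165997-137166296, minus strand: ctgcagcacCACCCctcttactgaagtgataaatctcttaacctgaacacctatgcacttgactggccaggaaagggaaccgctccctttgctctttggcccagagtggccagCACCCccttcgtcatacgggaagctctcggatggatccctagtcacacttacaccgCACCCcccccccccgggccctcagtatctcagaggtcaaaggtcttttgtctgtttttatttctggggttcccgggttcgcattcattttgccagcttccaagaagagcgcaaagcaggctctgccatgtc
Muc13, chr16:33793787-33794086, plus strand: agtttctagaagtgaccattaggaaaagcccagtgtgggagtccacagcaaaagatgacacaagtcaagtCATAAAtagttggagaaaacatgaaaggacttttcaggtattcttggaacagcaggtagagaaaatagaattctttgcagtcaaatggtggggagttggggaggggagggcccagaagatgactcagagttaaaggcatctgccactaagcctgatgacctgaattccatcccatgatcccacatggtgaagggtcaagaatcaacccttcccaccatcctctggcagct
Muc13 second start, chr16:33794239-33794538, plus strand: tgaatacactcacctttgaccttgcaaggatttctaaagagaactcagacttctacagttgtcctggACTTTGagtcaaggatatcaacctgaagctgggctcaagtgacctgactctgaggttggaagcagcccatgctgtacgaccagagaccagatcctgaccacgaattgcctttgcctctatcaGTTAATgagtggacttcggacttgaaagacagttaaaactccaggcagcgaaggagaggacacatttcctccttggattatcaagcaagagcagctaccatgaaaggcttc
Muc20, chr16:32797386-32797685, minus strand: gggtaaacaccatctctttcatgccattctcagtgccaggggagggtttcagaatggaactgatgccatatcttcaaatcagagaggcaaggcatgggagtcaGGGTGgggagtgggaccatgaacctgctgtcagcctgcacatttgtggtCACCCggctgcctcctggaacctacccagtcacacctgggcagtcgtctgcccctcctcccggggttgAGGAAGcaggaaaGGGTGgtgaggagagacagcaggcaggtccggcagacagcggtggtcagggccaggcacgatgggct
Capitals mark matches on either strand to 6 short motifs named below, and no marked match overlaps another. Muc3 and Muc20 each hold 3 matches to the KLF motif, spelled CACCC, which 57.5% of the 32851 RefSeq promoters hold. Neither Muc13 window holds it. Muc20 also has the ETS motif, searched as AGGAAG and present in 35.4% of all promoters. The first Muc13 window has a match to the CDX motif, for which the letters TTTATG were searched and which 11.9% of promoters hold. In the second Muc13 window there is a match to the HNF4 motif, written CAAAGT, which is found in 14.4% of promoters. The same window matches the HNF1 motif, for which GTTAAT was used and which 7.10% of promoters contain. The sixth motif, the TATA box with the letters TATAAA, occurs in 13.6% of promoters and in none of these windows. No motif of the 6 was present in all 4 windows. The RefSeq start of Muc3 lies upstream of the GENCODE M21 model used for its position.

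Muc3a, a second Muc3-type gene on the same strand 59.5 kb from Muc3, also rose, but by less than Muc3 did. Its CTRL values were 393 normalized counts in N1, 146 in N2, 391 in N4, 247 in N5 and 532 in N6. Its D30 values were 4048 in T1, 8080 in T2, 349 in T4, 3182 in T5 and 5748 in T7, so that T4 lay within the CTRL range and the other 4 lay above it. The log2 difference was 3.22 (SE 0.690, limma adjusted p = 0.0253). Muc3a reads outnumbered Muc3 reads 7.75- to 13.9-fold in CTRL and 1.05- to 2.44-fold in D30 tumors, and these ranges do not overlap. The annotated transcripts of both genes share no stretch of 31 bases in GENCODE M21, although that release tags the Muc3a model as lying over a reference genome error, and how the counting split reads between them is not known. Of the other neighbours of Muc3, Trim56 had a log2 difference of -0.17 (limma adjusted p = 0.893) and Ache one of 1.34 (limma adjusted p = 0.186), and neither passed. T4 was the lowest D30 tumor for these neighbours as well, at 422 normalized counts of Trim56 and 180 of Ache.

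Muc1 (chromosome 3, 89229057 to 89233381, plus strand), the transmembrane mucin whose tail signals in many carcinomas, was the most abundant mucin in both groups. CTRL tumors held 10335 normalized counts in N1, 10630 in N2, 19757 in N4, 15671 in N5 and 15361 in N6. D30 tumors held 29798 in T1, 36253 in T2, 8886 in T4, 24554 in T5 and 33845 in T7. In 4 of 5 D30 tumors Muc1 was above all CTRL tumors, and in T4 it was below all of them. The log2 difference was 0.79 (SE 0.355) and did not pass. Without T4 it was 1.14 and passed.

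Muc16 (ENSMUSG00000109564, chromosome 9, 18495455 to 18674530, minus strand), the largest transmembrane mucin and a ligand of mesothelin, went the other way. CTRL tumors held 128 normalized counts in N1, 215 in N2, 83.1 in N4, 102 in N5 and 98.4 in N6. D30 tumors held 11.3 in T1, 12.6 in T2, 9.25 in T4, 0 in T5 and 5.33 in T7. Every CTRL tumor was at least 6.60-fold above the highest D30 tumor, and T4 did not stand apart here. The D30 values rested on 0 to 11 reads, and the 0 in T5 allows up to 3 reads, or 3.43 normalized counts. The means were 125 ± 52.6 and 7.70 ± 5.11 (SD, n = 5 each), a log2 difference of -4.22 (SE 0.655). It was -3.54 without T5 and -3.41 with a pseudocount of 5, and it passed in both.
Muc16 is also a marker of mesothelium, so the 11 other markers of that lining were measured beside it. None of the 11 passed the limma threshold in either direction, 5 had an unadjusted p under 0.05, and 7 had a higher log2 mean in D30. Their summed level ran from 88851 to 123659 in CTRL and from 123686 to 193644 in D30 tumors. That sum includes Krt19, the ductal keratin that was abundant in every tumor, and the abundant Msln. It is therefore not a measure of mesothelium alone. Upk3b, a uroplakin of mesothelial cells, had the lowest p, at a log2 difference of 2.07 (adjusted p = 0.0519). Msln, which encodes the mesothelin that Muc16 binds, had 37934 ± 3129 normalized counts in CTRL and 51337 ± 27850 in D30 (limma adjusted p = 0.668). The promoter of Muc16 is shown for contrast with the mucins that rose.
Muc16, chr9:18674554-18674853, minus strand: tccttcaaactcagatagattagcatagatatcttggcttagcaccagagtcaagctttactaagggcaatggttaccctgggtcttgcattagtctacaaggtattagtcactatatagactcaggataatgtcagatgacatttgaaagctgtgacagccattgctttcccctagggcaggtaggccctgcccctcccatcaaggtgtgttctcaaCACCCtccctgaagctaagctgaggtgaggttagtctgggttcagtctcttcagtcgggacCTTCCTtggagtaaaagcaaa
It holds 1 match to the KLF motif and 1 match to the ETS motif on the reverse strand, and the Muc20 window holds both motifs as well.

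The gel-forming mucins lie side by side on chromosome 7, with 19.8 kb between them, and both were lower in D30 tumors. Muc5ac (141788972 to 141819231), the gastric-type gel-forming mucin that pancreatic neoplasms acquire, stood at 2167 normalized counts in N1, 4539 in N2, 4337 in N4, 6926 in N5 and 4902 in N6. D30 tumors held 765 in T1, 1557 in T2, 33.5 in T4, 425 in T5 and 2357 in T7. The groups met only at T7, which was above N1. The log2 difference was -3.02 (SE 0.877) and did not pass, while without T4 it was -2.04 and passed.

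Muc5b (141839070 to 141873084), the gel-forming mucin of airway and gland mucus, was likewise lowest in T4. CTRL tumors held 1868 normalized counts in N1, 6382 in N2, 3242 in N4, 10397 in N5 and 5491 in N6. D30 tumors held 472 in T1, 543 in T2, 6.94 in T4, 778 in T5 and 540 in T7. All CTRL tumors were at least 2.40-fold above the highest D30 tumor. Among the D30 tumors 4 lay within 1.65-fold of each other, and T4, with 6 reads, lay far below. The log2 difference was -4.26 (SE 1.04). It passed in 2 of the 10 fits without 1 tumor, those without T4 (-3.02) and without T5, and the other 8 lost the call. Transcripts of the 2 genes share few stretches of 31 bases, 0.286% of those of Muc5ac and 0.211% of those of Muc5b. The genes on either side did not pass. Tollip, 1.73 kb beyond Muc5b, had a log2 difference of 0.37 (limma adjusted p = 0.346), and Muc2, the intestinal gel-forming mucin 34.3 kb before Muc5ac, one of 0.40 (adjusted p = 0.810). Of the 3 other secreted mucins tested none passed, 1 had an unadjusted p under 0.05, and the lowest p was that of Mucl1, at -1.78 (limma adjusted p = 0.282).

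**Figure D2:**
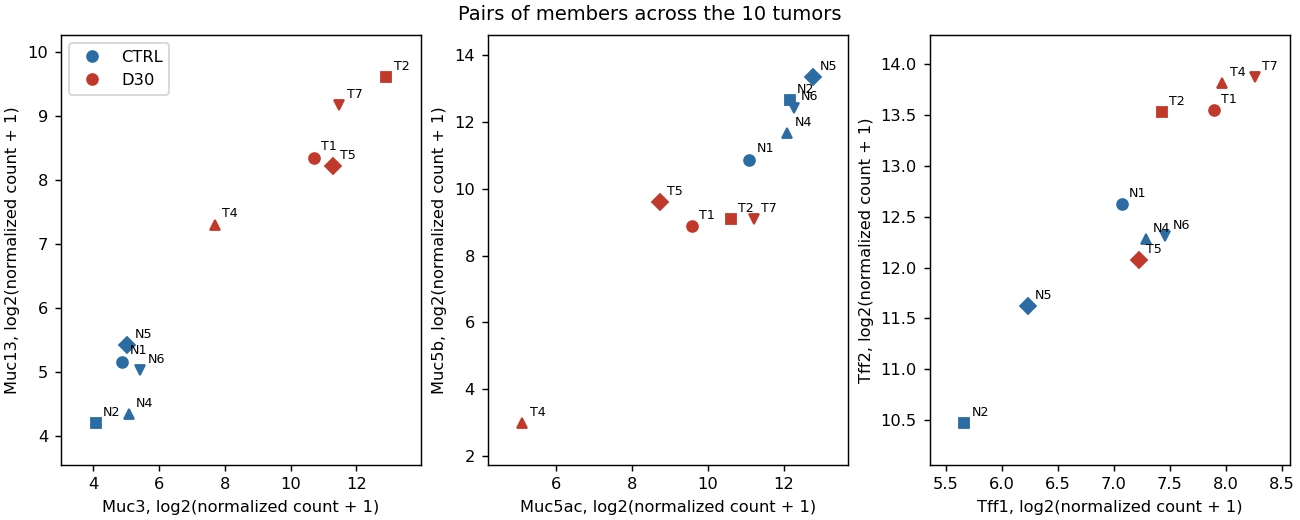
Each point is a tumor, with both axes on the log2(normalized count + 1) scale, CTRL in blue and D30 in red. Muc3 and Muc13 order the D30 tumors alike at both ends (T4 lowest, T2 highest), T4 lies far below the rest for Muc5ac and Muc5b, and T5 is the lowest D30 tumor for Tff1 and Tff2.

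The trefoil genes lie together on chromosome 17, and the D30 means of Tff1 and Tff2 were higher without a call. Tff2 (31141049 to 31144282), the trefoil peptide of gastric mucous neck and pyloric gland cells, stood at 6317 normalized counts in N1, 1419 in N2, 4971 in N4, 3150 in N5 and 5070 in N6. D30 tumors held 11935 in T1, 11795 in T2, 14404 in T4, 4302 in T5 and 15005 in T7. Here T5, not T4, was the low D30 tumor, and it lay within the CTRL range while the other 4 lay above it. The log2 difference was 1.50 (SE 0.421) and did not pass, and without T5 it was 1.83 and passed.

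Tff1 (31161395 to 31165277), the trefoil peptide of gastric surface mucous cells, was much less abundant. CTRL tumors held 134 normalized counts in N1, 49.9 in N2, 155 in N4, 74.4 in N5 and 175 in N6. D30 tumors held 236 in T1, 172 in T2, 250 in T4, 149 in T5 and 306 in T7. The groups overlapped in T2 and T5, and the log2 difference was 1.01 (SE 0.370). Tff3, the intestinal trefoil peptide and the third gene of the cluster, had 260 ± 120 normalized counts in CTRL and 464 ± 315 in D30 (limma adjusted p = 0.553). Markers of gastric and pyloric mucous cells were measured beside these genes. All 10 tested had a higher log2 mean in D30 and none passed, with 3 at an unadjusted p under 0.05 and a median log2 difference of 0.48. Psca, a surface antigen of gastric epithelium, had the lowest p among them, at 1.25 (adjusted p = 0.0554). The progenitor factor Sox2 was at or near 0 in all tumors.

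**Figure D3:**
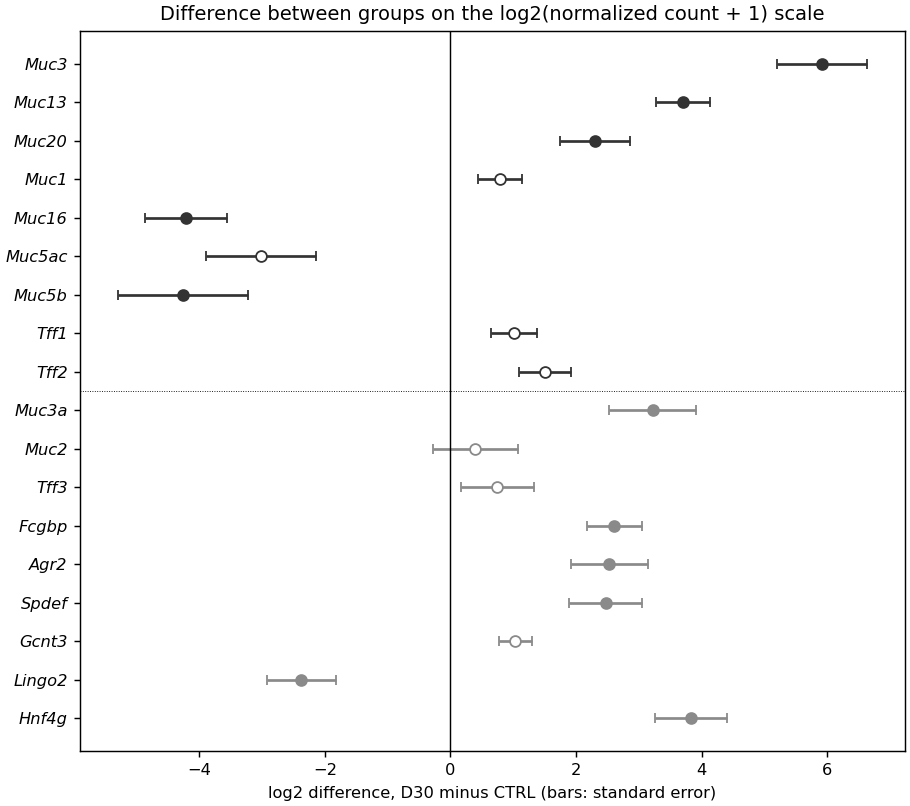
Points give the log2 difference of D30 minus CTRL tumors (n = 5 each) on the log2(normalized count + 1) scale, bars give the standard error, and filled points passed the limma threshold. Above the dotted line, Muc3, Muc13 and Muc20 are filled on the right and Muc16 and Muc5b on the left, and below it are genes of the same families and of the secretory pathway.

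Levels were compared between genes per kilobase of annotated exon. In CTRL tumors the medians ran in the order Tff2 (8512 normalized counts per kb), Muc1 (6548), Muc5ac (422), Muc5b (367), Tff1 (190), Muc3 (16.4), Muc13 (10.4), Muc16 (3.86) and Muc20 (0.784). Neighbours in this order overlapped between tumors except at the steps from Muc1 to Muc5ac, from Tff1 to Muc3 and from Muc16 to Muc20. In D30 tumors the order was Tff2 (20437), Muc1 (12702), Muc3 (1280), Tff1 (336), Muc13 (107), Muc5ac (71.1), Muc5b (36.1), Muc20 (6.35) and Muc16 (0.351). Only the last step, from Muc20 to Muc16, was free of overlap. The exon length of Muc3 is from a model shorter than the RefSeq gene, so its level per kb is uncertain. Levels of the other genes rest on annotated exon length as well, which is only 703 bp for Tff1 and 584 bp for Tff2. How far this length suits each gene was not tested.

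On that scale the make-up of the mucin signal differed between groups. Muc5ac and Muc5b made up 6.84% to 16.6% of the summed level of the 7 mucins in CTRL and 0.0906% to 1.56% in D30 tumors. The share of Muc3 was 0.152% to 0.307% in CTRL and 2.71% to 19.9% in D30 tumors. Muc1 held most of the sum in every tumor, from 82.9% to 92.8% in CTRL and from 77.8% to 95.8% in D30. Within the gel-forming pair, Muc5ac over Muc5b per kb was 0.927 to 1.86 in CTRL and 0.759 to 6.73 in D30 tumors, which overlapped.

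**Figure D4:**
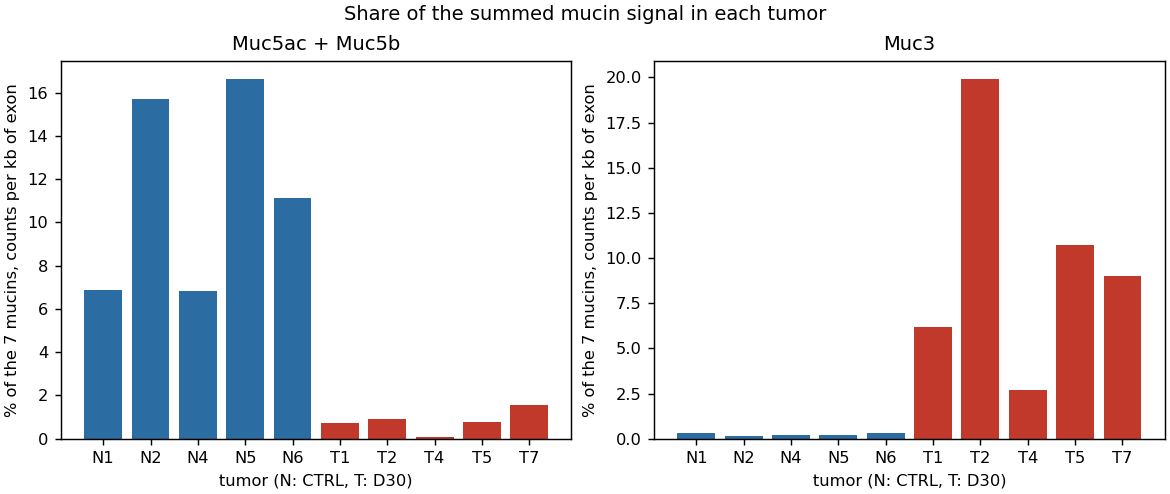
Bars show, for each of 10 tumors (blue CTRL, red D30), the percent of the summed counts per kb of the 7 mucins that came from Muc5ac plus Muc5b on the left and from Muc3 on the right. The left bars are at least 6.84% in CTRL and at most 1.56% in D30, and the right bars are at most 0.307% in CTRL and at least 2.71% in D30.

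Genes that make, modify or bind mucins and trefoil peptides were counted in the same fit. Of 79 tested outside the genes above, 5 passed (6.33%), 4 higher and 1 lower in D30 tumors. Of all tested genes 2.76% passed, 1.40% higher and 1.36% lower. The lists were fixed with earlier results of these data known, so nothing is read from these shares. Muc3a was one of those that rose, and the other 3 belong to the secretory program of mucous cells, of which 21 genes were tested. Of these 21, 15 had a higher and 6 a lower log2 mean in D30, with 3 at an unadjusted p under 0.05. Agr2, a disulfide isomerase of the endoplasmic reticulum needed for mucin folding, rose from 953 ± 700 to 5517 ± 3429 normalized counts (log2 difference 2.53, SE 0.610, limma adjusted p = 0.0448). Spdef, the transcription factor that drives goblet cell maturation, rose from 105 ± 53.8 to 630 ± 444 (2.47, SE 0.581, adjusted p = 0.0387). Fcgbp, a mucus protein that is secreted with mucins, rose from 808 ± 292 to 5539 ± 3437 (2.61, SE 0.442, adjusted p = 0.00790). The other 18 genes of that program did not pass, and Atoh1, which commits cells to the goblet lineage, was at 0 reads in all tumors. Of the 10 goblet cell markers, 8 were tested, and those that passed were Spdef and Fcgbp, where 2.76% of all tested genes passed. Of these 8 markers, 4 had a higher and 4 a lower log2 mean in D30, with a median log2 difference of 0.18. Retnlb had reads in T5 alone.

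None of the 40 O-glycosylation genes tested passed, with 10 at an unadjusted p under 0.05 (4258 of all 24560 genes tested) and a median log2 difference of -0.080. They comprise the enzymes that start, branch, extend and cap mucin sugars. Gcnt3, which builds the branched core structures of mucins, had the lowest p, with 3837 ± 1069 normalized counts in CTRL and 7806 ± 2091 in D30 (limma adjusted p = 0.0557). Of 12 partners and sheddases, Lingo2, described as a receptor for Tff3, fell from 31.7 ± 12.0 to 5.81 ± 3.56 (log2 difference -2.37, SE 0.547, adjusted p = 0.0354). Erbb3, Egfr, Cxcr4 and the sheddase Adam17 did not pass. Of 21 alternative fits, the call of Agr2 was lost in 13, that of Spdef in 12, that of Lingo2 in 10, that of Muc3a in 9 and that of Fcgbp in 3, and none of the 79 genes passed without the acinar-rich tumors N2 and N6.

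Among enterocyte markers, 1 of 18 tested passed, where 2.76% of all tested genes did. Of the 18, 11 had a higher and 7 a lower log2 mean in D30, with 6 at an unadjusted p under 0.05. Hnf4g, a nuclear receptor of absorptive epithelium, rose from 11.0 ± 6.42 to 178 ± 150 normalized counts (log2 difference 3.83, SE 0.570, limma adjusted p = 0.00431). Mep1a, a protease gene on the same list, went the other way without passing. It fell from 46.5 ± 16.3 to 8.92 ± 5.40 (log2 difference -2.63, limma adjusted p = 0.0619). The summed level of the enterocyte list ran from 79391 to 118837 in CTRL and from 143971 to 314277 in D30 tumors. The most abundant genes of the list weigh most in that sum, and Hnf4g and Mep1a add little to it. It is therefore not a measure of enterocytes. The defining markers Cdx1 and Sis were at or near 0 in all tumors, so that markers of this type were present only in part. Of 16 ductal epithelial markers tested, 11 had a higher log2 mean in D30, with a median log2 difference of 0.52 and 13 at an unadjusted p under 0.05. Their summed level ran from 294575 to 432565 normalized counts in CTRL and from 402712 to 546589 in D30. Of the 16, 2 passed, both lower in D30, where 1.36% of all tested genes fell. These were Esrp1, an epithelial splicing factor, at a log2 difference of -3.05 (adjusted p = 0.00656), and the tight junction gene Cldn7 at -2.59 with an adjusted p just under the threshold, both low in all tumors. The call of Cldn7 was lost in 14 of 20 alternative fits, among them 8 of the 10 without 1 tumor (all but those without N5 or T4). That of Esrp1 was lost in 3 of 19, and its log2 difference ran from -1.41 with a pseudocount of 5 to -4.96 with DESeq2. The part of these epithelial markers in the mucin values was not tested.

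Genes whose levels ran most like those of Muc3 over the 10 tumors were Abcc3 (Pearson r = 0.995), Plekhg6 (0.983), Proser2 (0.979), Muc13 (0.978) and Thpo (0.978), out of 17360 genes whose mean over the tumors reached 10 normalized counts. The correlations are descriptions and include the difference between the groups. Abcc3, which encodes an efflux transporter for conjugated organic anions, stood at 694 normalized counts in N1, 492 in N2, 849 in N4, 749 in N5 and 760 in N6. D30 tumors held 2955 in T1, 5640 in T2, 1216 in T4, 3312 in T5 and 3662 in T7. T2 was again the highest and T4 the lowest D30 tumor, as for Muc3 and Muc13.

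Without the acinar-rich tumors N2 and N6, chosen after seeing the data, 2 of the 9 genes passed (Muc3 and Muc13) and 66 genes passed in all. Without T4, 7 of the 9 passed, namely the 7 mucins among them.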

How the data were processed

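RNA was sequenced from 10 tumors. The authors prepared strand-specific libraries, sequenced 150-bp read pairs, trimmed them and aligned them with STAR (v2.7.0e). The notes with the samples name the mouse build GRCm39, the methods name a human build, and the table carries mouse Ensembl identifiers. For every gene the authors deposited a normalized signal in each tumor, in the form of DESeq2 normalized counts, in which each count is divided by a size factor. All values (100.0%) gave whole reads, within a relative tolerance of 0.001, once divided by the step of their column.

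Identifiers were matched to GENCODE M21 (GRCm38), which named 52083 of the 55359 genes (94.1%). Positions and exon lengths are from that release, and the later release behind the table may differ. Differences were fitted with limma (v3.58.1, R v4.3.3) with a mean-variance trend on log2(normalized count + 1) over the 24560 genes with a mean of 1 or more, two-sided, with Benjamini-Hochberg adjustment and a threshold of 0.05. Replicates are separate tumors by their labels. Alternatives were edgeR (v4.0.16, quasi-likelihood, TMM) and DESeq2 (v1.42.0) on the recovered reads, pseudocounts of 0.5 and 5, no filter, a mean of 10, other scalings, leaving out each tumor, and a block over column numbers. The fit was tested on simulated data.

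The genes described, the gene lists and the tests were chosen with earlier results of these data known. Named besides the members were, for each list, the genes past the threshold (6 at most) or otherwise the one with the lowest p, the genes with the highest Pearson r with a member (5 for Muc3, 2 for the others), the neighbours of Muc3, and defining markers near 0. Erbb3, Egfr, Cxcr4, Adam17, Msln and the ductal keratins, and neighbours of the other members, were named after their values were seen. Muc4, Muc6, Muc7, Muc12, Muc17, Muc19 and Muc21 were not analysed here. One neighbour of Muc3 is not reported here.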

Additional observations from a re-analysis of the deposited data

Results flagged for a closer look

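On the log2 scale, 3 of the 18 sets of 5 values (9 genes in each of 2 groups) had 1 tumor farther from the others than Dixon's critical value of 0.71 allows. The genes were selected on these values and the sets share the same tumors, so this count is a description and not a test. The D30 tumor T4 was low for Muc1, at 8886 normalized counts with a gap of 0.723 of the range to the next tumor. T4 was also low for Muc5b, at 6.94 normalized counts with a gap of 0.891. The D30 tumor T5 was low for Tff2, at 4302 normalized counts with a gap of 0.807. T4 had the highest Krt7 of all tumors (81938 normalized counts), the only Y-linked reads (841) and, at 6794, the highest summed acinar markers among D30 tumors, and T5 had the fewest genes with a read (20482). Their part in these values was not tested.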

How the results depend on the processing

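No direction was reversed in any alternative. Calls changed with the tumors and the tool. All genes past the threshold numbered 678, and 1842 with DESeq2, 66 without N2 and N6, and 279 (without N2) to 1573 (without T4) when 1 tumor was left out. Leaving out N5, N6 or T7 gave 340, 332 and 433. Of the 9 mucin and trefoil genes 5 passed, and 3 without the filter, 2 without N2 and N6, and 3 to 7 with 1 tumor left out (7 without T4). Only 3 passed without N1, N2, N4, N5, N6, T1, T2 or T7. Of the 79 pathway genes 5 passed, and 3 without the filter, 3 with library size scaling, 8 with edgeR, 12 with DESeq2, 0 without N2 and N6, and 1 to 13 with 1 tumor left out (1 without N2, N4, N5, T1 or T7, 2 without N6 or T2, 13 without T4, 8 without T5). The call of Muc16 was lost in 2 of 21 alternatives (the replicate block, and without N2 and N6). With DESeq2, Muc5ac and Tff2 also passed. Library size and upper quartile scaling moved the median of all genes to -0.27 and -0.21. The causes were not tested.

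Column numbers 1, 2, 4 and 5 occur in both groups. Same-numbered tumors did not deviate together (correlations of -0.199, -0.0917, -0.0717 and 0.00144). What the numbers stand for is not given, and these correlations do not settle whether they pair the tumors. With a replicate block on these 8 tumors 17 genes passed in all, 0 of the mucin and trefoil genes and 0 of the pathway genes, where the same 8 tumors without a block gave 143, 3 and 0. Muc3 and Muc13 had limma adjusted p of 0.0577 and 0.0658 with the block. Muc16 in D30 tumors and Muc20 in CTRL tumors rest on 11 reads or fewer, which limits their fold changes.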

Other observations

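The genes that ran most like each of the other members over the 10 tumors differed from member to member, and every correlation includes the group difference. Low values in T4 enter some of them as well. T4 was the lowest of the 10 tumors for Fads1 (2100 normalized counts), Camkk2 (370) and Adamts10 (278). Muc1 ran with Slc37a1 (Pearson r = 0.987) and with Cdhr5 (0.985), a cadherin of the brush border. Muc13 ran with Tmem184a (0.993) and Muc3. Muc5ac ran with Fads1 (0.985), a fatty acid desaturase, and Camkk2 (0.981). Muc5b ran with the protease genes Adamts10 (0.987) and Mep1a (0.985). Muc16 ran with 6430550D23Rik (0.990) and 1110002E22Rik (0.982), Muc20 with 4933413J09Rik (0.964) and Gm45151 (0.961). Tff1 ran with Gramd2 (0.952) and Tff2 (0.930), and Tff2 with Fabp2 (0.967), an intestinal fatty acid-binding protein, and Paox (0.965). The gene 1110002E22Rik was at 223 ± 93.8 normalized counts in CTRL and 10.2 ± 6.15 in D30 tumors (limma adjusted p = 0.00431).

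Neighbours of other members were also looked at. Mtx1 and Trim46, on either side of Muc1, had log2 differences of 0.021 (limma adjusted p = 0.978) and 0.11 (limma adjusted p = 0.937). Heg1 and Itgb5, on either side of Muc13, had -0.45 (limma adjusted p = 0.503) and -0.15 (limma adjusted p = 0.840). Low values in T4 were not limited to mucins. Trim46 held 294 normalized counts in T4 and 1510 to 2138 in the other D30 tumors. Heg1 held 578 against 1613 to 1802, and Itgb5 held 2099 against 5338 to 6918. Tollip and Muc2 did not have their lowest D30 value in T4. Tfrc, the transferrin receptor gene 145 kb from Muc20, rose by 1.10 (limma adjusted p = 0.0141).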
